A study of Homo sapiens with 8 samples.

Results

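Stable knockdown of SMARCB1 in Huh7 cells was examined on 4 arrays of a series of 8, by setting the 2 arrays whose labels give Huh7 and SMARCB1 knockdown against the 2 whose labels give Huh7 and control. Huh7 is an established human hepatoma line that keeps many traits of hepatocytes. The knockdown arrays carry the numbers 3 and 4 in their titles and the control arrays 1 and 2. The other 4 arrays come from SK-Hep1, a second liver cancer line with the same knockdown, and they entered the fit to estimate the spread between arrays. Cells given short hairpin RNA were selected in puromycin at 1.25 µg/mL, a protocol that stands with control and knockdown samples alike. Control titles name GFP, with nothing further given on the control construct, the hairpin sequence or the number of clones. The number 11 stands in the titles of both knockdown arrays, and its meaning is not given. Each array received labelled cRNA prepared from 0.55 µg of RNA. The 2 arrays of a group carry 1 replicate description between them, and separate cultures are not mentioned, so p-values measure array-to-array spread alone, which may be technical.

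SMARCB1 encodes a core subunit of the SWI/SNF complexes, which use ATP to move nucleosomes at enhancers and promoters. Loss of SMARCB1 is the founding lesion of rhabdoid tumours, and SWI/SNF complexes are known to oppose Polycomb repression and to keep enhancers of tissue-specific genes open. In hepatocytes, SWI/SNF complexes work with lineage transcription factors at genes for plasma proteins and for lipid, bile acid and drug metabolism.

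In Huh7, knockdown was followed by changes in many genes at once. Genes of glycolysis and the hypoxia response, chemokine and NF-kB target genes, contractile genes, epithelial junction genes and genes of DNA replication and ribosome biogenesis rose far more often than they fell. Genes of fatty acid and cholesterol synthesis, LXR targets, homeobox genes and genes of liver-secreted proteins fell more often than they rose. Of 12411 genes bright enough to be tested, 4833 (38.9%) passed an adjusted p of 0.05 in limma with Benjamini-Hochberg adjustment, with 2409 higher (19.4%) and 2424 lower (19.5%). Most of these changes were small: their median size was 0.36 on the log2 scale, and 3574 of them (73.9%) were under 0.5. At least 2-fold changes were found in 170 genes (1.37%), with 86 higher and 84 lower, and 6 genes changed at least 4-fold. The median over all genes tested was 0.0006, on arrays that had been brought to 1 scale before deposit.

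The count of calls rested on all 4 Huh7 arrays. It was 2877 without control array 1, 2960 without control array 2, 3133 without knockdown array 3 and 3033 without knockdown array 4. In all, 2314 genes were called with each of the 8 arrays left out in turn, 1145 of them higher (9.23% of all genes tested) and 1169 lower (9.42%). These are called stable calls below, and they are given in the same order as the counts of calls they follow. Every list count below is to be read against the shares of all genes, 19.4% higher and 19.5% lower. The count of 2-fold changes stayed within 1.5 times under every alternative. Differences are knockdown minus control on the deposited log2 scale, ± the standard error of the fit, with 2 arrays in each group throughout. Adjusted p-values are two-sided.

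**Figure D1:**
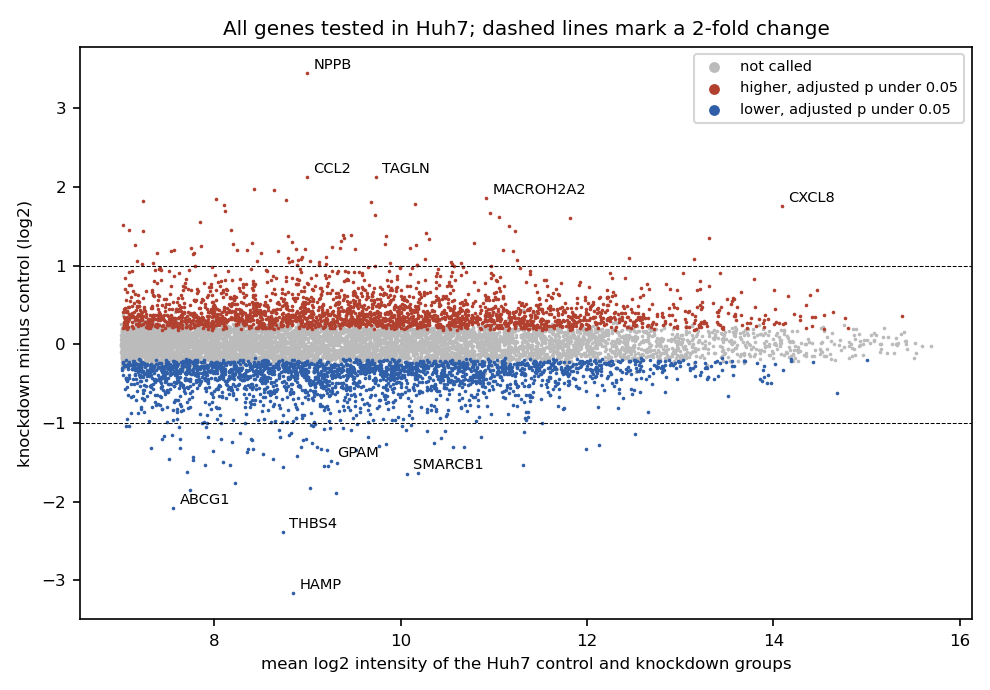
Each point is 1 of the 12411 genes tested, with the mean log2 intensity of the Huh7 control and knockdown groups on the x axis and the log2 difference between knockdown and control on the y axis. The cloud is symmetric about 0, most coloured points lie inside the dashed 2-fold lines, and NPPB and HAMP lie farthest out at 3.45 and -3.16.

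The targeted gene checked the labels. The brighter SMARCB1 probe read 10.84 and 10.94 in the controls and 9.22 and 9.27 in the knockdown arrays, a difference of -1.65 ± 0.107 (adjusted p = 3.48e-06). The second probe read 10.25 and 10.19 in the controls and 8.70 and 8.79 in the knockdown arrays, a difference of -1.47. Both probes thus put the knockdown arrays below both controls, with 32.0% and 36.1% of the control signal left. These percentages are shares of array signal, background included, and not of RNA molecules.

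Replicate arrays lay close together. Across genes, the 2 arrays of a group differed with an SD of 0.103 in the Huh7 controls and 0.115 in the Huh7 knockdown arrays, against 0.331 between the groups. Array medians ran from 6.931 to 6.934 over the 8 arrays. Huh7 and SK-Hep1 had nearly the same mean for every gene in the deposited values. Line means differed with an SD of 0.029 across genes, and 0 genes were more than 0.5 apart. ALB, the main hepatocyte product, read 11.58 to 11.60 on the Huh7 arrays and 11.21 to 11.37 on the SK-Hep1 arrays. Gene levels were therefore not compared between the lines, and the identity of Huh7 could not be checked from them. Centring each line would not alter a knockdown difference inside it, but whether differences were also rescaled is not known.

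Cell type markers were read with that limit. Of 24 hepatocyte markers 20 were tested, and their mean ran from 10.11 to 10.12 in the controls and from 9.946 to 10.01 in the knockdown arrays. Of 12 bile duct markers 9 were tested, with means of 9.184 to 9.202 in the controls and 9.617 to 9.663 in the knockdown arrays. Only 3 of 14 endothelial markers and 6 of 14 immune markers passed the filter on dim probes, 10 of 13 stellate and fibroblast markers did, and the mean of the immune markers was 8.538 to 8.555 in the controls and 8.26 to 8.303 in the knockdown arrays. Of the 6 immune markers 1 was called higher and 2 lower, and signal in a cell line does not show that immune cells were present. In a bulk culture, fewer cells of a kind and less RNA per cell cannot be told apart.

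The 20 largest rises ran from 1.51 to 3.45 and the 20 largest falls, SMARCB1 among them, from -1.47 to -3.16. All 40 were stable calls, which their selection by size favours. The rises had adjusted p-values from 2.36e-07 to 0.000218 and the falls from 1.81e-07 to 1.06e-05. For BAAT and ZPLD1 the controls, and for ABCG1, PLA2G7 and DACT3 the knockdown arrays, lay below the dim-probe limit of 7.003 on the deposited scale, within the range of most probes for silent gene families. The same holds among the list members named below for the controls of ACTG2, MT1M, SLC2A2, TNFRSF9 and TNS1 and for the knockdown arrays of ADAMTS9, CHRD, CYP4F12, H19, HAL, MLXIPL, PPARA and SERPINC1. Since line means were nearly equal for every gene in the deposited values, these levels do not show whether a gene is silent in Huh7.

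**Figure D2:**
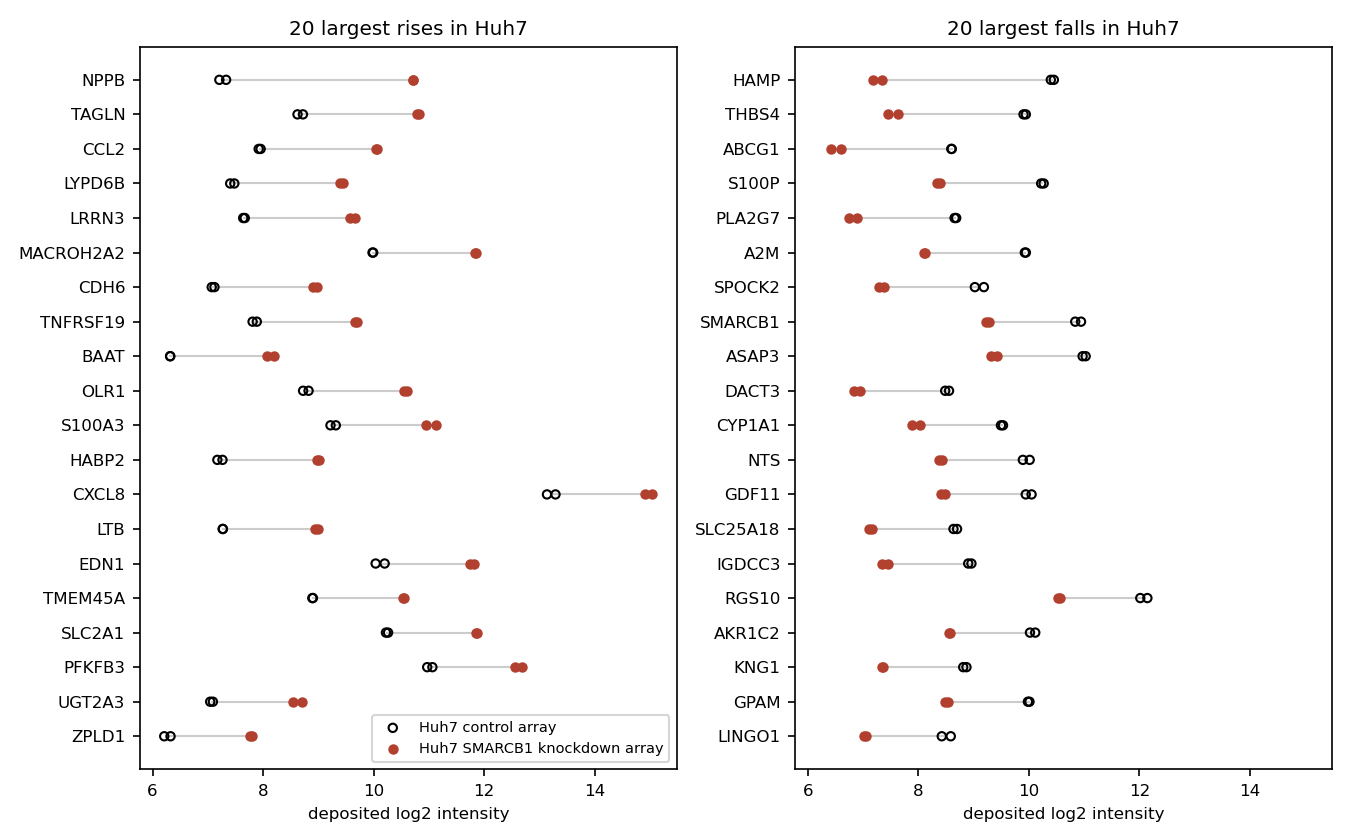
Deposited log2 intensities (x axis) of the 20 genes with the largest rises (left) and the 20 with the largest falls (right), with open points for the 2 Huh7 control arrays, filled points for the 2 knockdown arrays and a line joining the group means. For all 40 genes the knockdown points lie on one side of both controls, as the choice of these genes required, and the gap is several times the spread within a group.

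The largest rise was in NPPB, which encodes the precursor of B-type natriuretic peptide, a hormone of stretched heart muscle. NPPB read 7.21 and 7.33 in the controls and 10.72 on both knockdown arrays, a rise of 3.45 ± 0.165 or 10.9-fold (adjusted p = 6.09e-07). The control values lay just above the dim-probe limit, and the knockdown values did not. Of 10 tested natriuretic and cardiac genes, NPPB included, 3 were higher (30%, against 19.4% of all genes) and 1 lower. Of these calls 2 and 1 were stable. RCAN1, a calcineurin inhibitor, rose by 0.45 ± 0.0838, and TNNT1, a troponin of slow skeletal muscle, fell by 0.36 ± 0.0744. EDN1, which encodes the vasoconstrictor endothelin, read 10.20 and 10.04 in the controls and 11.83 and 11.75 after knockdown, a rise of 1.67 ± 0.0963.

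HAMP had the largest fall. It encodes hepcidin, a liver hormone that blocks iron export by degrading ferroportin. HAMP read 10.45 and 10.40 in the controls and 7.18 and 7.34 after knockdown, a difference of -3.16 ± 0.1 or 8.96-fold (adjusted p = 1.81e-07). The knockdown values lay just above the dim-probe limit. HJV, which encodes hemojuvelin, the BMP co-receptor that drives hepcidin transcription, read 9.57 and 9.54 in the controls and 8.31 and 8.38 after knockdown, a difference of -1.21 ± 0.0742. Its probes ran from -1.27 to -1.21.

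Other genes of iron handling moved less. Of 24 tested members of the iron list, HAMP included, 4 rose (16.7%) and 7 fell (29.2%), against 19.4% and 19.5% of all genes. Of these calls 3 and 4 were stable, and the median of the list was -0.12. HMOX1, the heme oxygenase that frees iron from heme, rose by 0.75 ± 0.129, and SLC46A1, a heme and folate carrier, by 0.66 ± 0.0801. SLC25A37, the mitochondrial iron importer, fell by 0.61 ± 0.109. CP, the ferroxidase ceruloplasmin, was at -0.50 with an adjusted p of 0.0449, and it lost its call without control array 2 or either knockdown array. In the BMP and SMAD list 5 of 26 members rose (19.2%) and 6 fell (23.1%), near the shares of all genes, with 4 stable calls each way. The receptor gene BMPR2 (0.72 ± 0.0977) and the ligand gene BMP2 (0.48 ± 0.0807) rose, and the secreted antagonist genes CHRD (-0.67 ± 0.09) and FST (-0.90 ± 0.117, -0.25 on its other extreme probe) fell. ID1 (-0.40 and -0.37 on its probes) and ID3 (-0.47), which BMP signalling induces, fell as well. Other genes that BMP signalling induces did not all follow. BAMBI rose by 0.41, ATOH8 was at 0.002 and ID2 at -0.21 and -0.09 on its probes. The activity of the pathway was not tested.

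The HAMP promoter is shown because hepcidin is known to be driven through a BMP response element and a STAT site close to its start. The window holds 250 bases before to 50 after the start (RefSeq, GRCh38.p14, chr19:35282278-35282577, plus strand), and capitals mark the BMP response element core GGCGCC at -105 to -100 and the STAT site form TTCNNNGAA at -93 to -85.
HAMP: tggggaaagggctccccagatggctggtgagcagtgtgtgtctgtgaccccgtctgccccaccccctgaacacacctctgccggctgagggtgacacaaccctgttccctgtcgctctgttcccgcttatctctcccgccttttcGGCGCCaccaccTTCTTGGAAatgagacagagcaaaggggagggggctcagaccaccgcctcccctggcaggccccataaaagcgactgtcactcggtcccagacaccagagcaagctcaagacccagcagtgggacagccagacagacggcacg
Searched on both strands, GGCGCC occurs in 19.2% of all 35116 such promoters and TTCNNNGAA in 7.66%. A match describes the letters of the window only.

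Chemokine, cytokine and NF-kB target genes were mostly higher. Of 48 tested members 27 rose (56.2%, against 19.4% of all genes) and 4 fell, with 18 and 1 stable calls and a median of 0.31. CCL2, the monocyte-attracting chemokine, read 7.96 and 7.92 in the controls and 10.07 and 10.04 after knockdown, a rise of 2.12 ± 0.267 (adjusted p = 0.000218). CXCL8, the neutrophil chemokine, read 13.29 and 13.14 in the controls and 15.05 and 14.90 after knockdown, and its probes put the rise at 1.76 to 1.79. Both chemokine genes were above both controls on both knockdown arrays, as the choice of the largest rises required. Such a lack of overlap, in either direction, held for 9265 of the 12411 genes tested.

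LTB, which encodes lymphotoxin beta, read 7.27 on both controls and 8.933 and 8.997 after knockdown, a rise of 1.69 ± 0.0957, with 1.27 on its second probe. CXCL10, an interferon-induced T cell chemokine, read 8.11 and 8.10 in the controls and 9.50 and 9.47 after knockdown, a rise of 1.38 ± 0.0665. TNFAIP3, the ubiquitin-editing enzyme A20 that NF-kB induces and that restrains it, rose by 1.03 ± 0.093, and the apoptosis regulator gene TNFAIP8 by 1.06 ± 0.0814. OLR1, a receptor for oxidised LDL, read 8.82 and 8.72 in the controls and 10.55 and 10.60 after knockdown, a rise of 1.80 ± 0.211.

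Among receptors of the TNF superfamily 4 of 19 tested members rose and 3 fell (4 and 2 stable calls), a share near that of all genes. TNFRSF19, which Wnt signalling induces, read 7.81 and 7.89 in the controls and 9.67 and 9.70 after knockdown, a rise of 1.84 ± 0.0672. TNFRSF12A, the receptor of the cytokine TWEAK, rose by 1.26 ± 0.0872, the co-stimulatory receptor gene TNFRSF9 by 0.95 ± 0.0742 and the decoy receptor gene TNFRSF11B by 0.70 ± 0.0754. Conversely, LTBR, the receptor of lymphotoxin beta, fell by 0.52 ± 0.0981 while the ligand gene LTB rose. TNFRSF1A, the main TNF receptor, fell by 0.35 ± 0.0673.

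The CXCL8 promoter is shown because CXCL8 rose on both of its probes and its promoter holds a form of the NF-kB site. Its window is chr4:73740319-73740618 on the plus strand (RefSeq, GRCh38.p14), with the NF-kB site form GGNNNTTCC at -91 to -83 and the AP-1 site TGANTCA at -137 to -131 in capitals.
CXCL8: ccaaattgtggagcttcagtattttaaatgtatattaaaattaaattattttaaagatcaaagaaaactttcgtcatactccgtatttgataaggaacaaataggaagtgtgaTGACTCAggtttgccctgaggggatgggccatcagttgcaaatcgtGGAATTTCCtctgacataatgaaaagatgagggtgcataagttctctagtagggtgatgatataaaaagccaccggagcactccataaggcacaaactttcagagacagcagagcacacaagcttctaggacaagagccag
GGNNNTTCC occurs in 20.1% of all promoters and TGANTCA in 7.71%. Of the 33 promoters of NF-kB list members called higher (23 genes) 18 (54.5%) held GGNNNTTCC. Of the 76 promoters of all members (50 genes) 35 (46.1%) did. The list was made to hold NF-kB targets, which favours a share above that of all promoters. Use of the sites was not tested. The AP-1 form was in 1 of the same 33 promoters (3.03%) and in 11 of the 76 of all members (14.5%).

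Many interferon-stimulated genes, but not all, moved the same way in smaller steps. Of 44 tested members 20 rose (45.5%), 4 fell and 20 were not called, with 13 and 2 stable calls and a median of 0.15. ISG15 (-0.14), BST2 (-0.11), IFIT1 (-0.01) and IFI44 (-0.02), also interferon-induced, were not called. GBP1, a guanylate-binding protein, rose by 1.24 ± 0.125 (1.36 on its other probe), the antiviral factor gene SAMD9 by 1.08 ± 0.087 and OAS3, a sensor of double-stranded RNA, by 0.99 ± 0.148. IFIH1, which encodes the RNA sensor MDA5, read 8.08 and 8.09 in the controls and 9.02 on both knockdown arrays. UBE2L6, the conjugating enzyme of the modifier ISG15, went the other way, at -0.81 ± 0.0876 and -0.52 on a second probe. Of 20 MHC class I and antigen processing genes 11 rose (55%) and 3 fell, with 7 and 1 stable calls. HLA-B, a classical class I molecule whose probe can also read related HLA genes, rose by 0.71 ± 0.12, and the immunoproteasome genes PSMB8 (0.52 ± 0.098), PSMB9 (0.52 ± 0.0865, 0.05 on a second probe) and PSMB10 (0.50 ± 0.0692) rose as well. The non-classical HLA-E fell by 0.70 ± 0.0676. Of 14 MHC class II genes 2 rose and 1 fell (1 and 0 stable calls).

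Genes of glycolysis and the hypoxia response rose most broadly, with the highest share of rises of any list in the plot of lists: 29 of 43 tested members rose (67.4%, against 19.4% of all genes) and 3 fell, with 22 and 2 stable calls and a median of 0.35. SLC2A1, the glucose transporter of most growing cells, read 10.22 and 10.26 in the controls and 11.85 and 11.88 after knockdown, a rise of 1.62 ± 0.0702 or 3.07-fold (adjusted p = 5.95e-07). PFKFB3, which makes the fructose bisphosphate that speeds up glycolysis, read 10.97 and 11.06 in the controls and 12.68 and 12.56 after knockdown, with a rise of 1.28 to 1.61 over its probes. PFKFB4, its relative, read 10.39 and 10.44 in the controls and 11.89 and 11.94 after knockdown, a rise of 1.51 ± 0.0885.

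ANKRD37, a target of hypoxia-inducible factor, read 8.15 and 8.32 in the controls and 9.33 and 9.35 after knockdown, a rise of 1.10 ± 0.0894. BNIP3, a mitophagy receptor induced by hypoxia, rose by 0.82 ± 0.0875. PFKM, the muscle form of phosphofructokinase, was the largest fall of the list at -0.85 ± 0.0765. On the storage side of glucose metabolism, 10 of 27 genes of gluconeogenesis and glycogen rose and 7 fell (6 and 2 stable calls). SLC2A2, the glucose transporter of hepatocytes, rose by 1.26 ± 0.0655 from controls below the dim-probe limit (6.55 and 6.49). The glycogen branching enzyme gene GBE1 rose by 1.07 ± 0.0886, PPP1R3C, which targets a phosphatase to glycogen, by 0.89 ± 0.135, and the glycogen synthase gene GYS1 by 0.64 ± 0.0831. The transcriptional coactivator gene of gluconeogenesis PPARGC1A fell by 0.95 ± 0.0687. Few oxidative phosphorylation genes passed the test, with 2 of 46 higher and 2 lower (0 and 2 stable calls) and a median of -0.03.

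The ANKRD37 promoter is shown because it holds 3 matches to the hypoxia response element core ACGTG, marked in capitals at -162 to -157 (a CACGTG that is read on both strands) and at -143 to -139. Its window is chr4:185396591-185396890 on the plus strand (RefSeq, GRCh38.p14).
ANKRD37: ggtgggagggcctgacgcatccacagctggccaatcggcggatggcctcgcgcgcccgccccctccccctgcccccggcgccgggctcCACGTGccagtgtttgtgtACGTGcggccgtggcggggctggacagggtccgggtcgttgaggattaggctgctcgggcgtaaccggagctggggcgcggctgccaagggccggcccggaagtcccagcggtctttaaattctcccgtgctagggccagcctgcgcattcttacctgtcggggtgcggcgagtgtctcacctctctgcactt
ACGTG occurs in 21.4% of all promoters. Of the 40 promoters of hypoxia list members called higher (27 genes) 22 (55%) held it. Of the 73 promoters of all members (41 genes) 30 (41.1%) did. The list was made to hold hypoxia response genes, which favours a share above that of all promoters. Use of the sites was not tested.

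Contractile genes, many of which are driven by serum response factor (SRF), rose as a group. Of 39 tested members 22 rose (56.4%) and 2 fell, with 14 stable calls, all higher, and a median of 0.28. TAGLN, which binds actin in smooth muscle, read 8.62 and 8.72 in the controls and 10.78 and 10.81 after knockdown, a rise of 2.12 ± 0.108 or 4.36-fold, with 0.88 on its second probe. ACTG2, the gamma actin of enteric smooth muscle, read 6.36 on both controls and 7.81 on both knockdown arrays, and its controls were below the dim-probe limit. TNS1, which links actin to integrins, read 6.99 and 6.95 in the controls and 8.20 and 8.13 after knockdown, a rise of 1.20 ± 0.1.

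TAGLN2 rose by 0.77 ± 0.0988 and the smoothelin gene SMTN by 0.67 ± 0.0937, with 0.22 on a second SMTN probe. TPM1, a tropomyosin, rose by 0.77 ± 0.0711 on its brightest probe while another read -0.03, so its probes disagreed. Of the YAP target genes 12 of 28 rose (42.9%) and 4 fell, with 9 and 3 stable calls. The growth factor gene TGFB2 (1.04 ± 0.112), the kinase gene NUAK2 (0.99 ± 0.095) and the Hippo pathway scaffold gene WWC1 (0.92 ± 0.0924) rose. YAP1 itself fell by 0.58 ± 0.0741, and NT5E, the ectoenzyme that makes adenosine, fell by 0.93 ± 0.0778. In the TGF-beta list 10 of 24 rose (41.7%) and 2 fell, with 8 and 0 stable calls, yet its median was 0.03 and turned to -0.03 without control array 1.

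The ACTG2 promoter is shown because it holds 2 CArG boxes, the sites that SRF binds, in capitals at -110 to -101 and -73 to -64. Its window is chr2:73892758-73893057 on the plus strand (RefSeq, GRCh38.p14).
ACTG2: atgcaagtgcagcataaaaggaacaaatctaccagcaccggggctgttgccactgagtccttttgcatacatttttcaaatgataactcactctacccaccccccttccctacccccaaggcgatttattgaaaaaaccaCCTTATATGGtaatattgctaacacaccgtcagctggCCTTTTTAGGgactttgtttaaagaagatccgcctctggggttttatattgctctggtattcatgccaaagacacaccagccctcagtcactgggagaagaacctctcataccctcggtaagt
A CArG box occurs in 1.29% of all promoters. It was in 7 of the 42 promoters of contractile genes called higher (16.7%, 20 genes). Of the 100 promoters of all members (42 genes) 17 (17%) held it. Counted over promoters, the share was thus not higher for members called higher than for the list as a whole. The list was made to hold SRF targets, which favours a share above that of all promoters.

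Epithelial genes rose more often than they fell. Of 37 tested keratin and junction genes 19 rose (51.4%) and 4 fell, with 13 and 3 stable calls and a median of 0.26. EPCAM, an adhesion protein of bile duct and progenitor cells, read 9.56 on both controls and 11.01 and 10.94 after knockdown, a rise of 1.41 ± 0.0778, and 1.18 to 1.42 over its probes. KRT80 rose by 1.31 ± 0.13 (0.57 on a second probe), and the desmosomal plakin gene PPL by 1.28 ± 0.0758. The membrane mucin gene MUC1 rose by 0.91 ± 0.0832 and the gap junction gene GJA1 by 0.88 ± 0.0899. CLDN12, a claudin, fell by 0.80 ± 0.146.

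Of the 9 tested bile duct markers 6 rose and 0 fell in limma at the adjusted threshold, nor did any fall at an unadjusted p under 0.05, and 4 of the rises were stable calls. Their median was 0.50, against 0.0006 over all genes. Besides EPCAM and MUC1, the keratin gene KRT19 read 11.89 and 11.86 in the controls and 12.56 on both knockdown arrays, and the trefoil factor gene TFF3 rose by 0.50 ± 0.0758. SOX9, the bile duct transcription factor, rose by 0.52 ± 0.126, and SPP1, osteopontin, by 0.26 ± 0.073. SOX9 lost its call without control array 1 or knockdown array 4, and SPP1 without any 1 of the 4 Huh7 arrays. Mesenchymal genes showed no common direction, with 6 of 23 higher (26.1%) and 4 lower (17.4%), near the shares of all genes, and 3 stable calls each way. The caveolin genes CAV1 (0.48 ± 0.0701) and CAV2 (0.59 ± 0.0914, 0.28 on another probe) rose, and ZEB1 (-0.46 ± 0.0726) and the PDGF receptor gene PDGFRA (-1.39 ± 0.0711) fell. CDH6, a cadherin of kidney and bile duct, read 7.12 and 7.07 in the controls and 8.97 and 8.91 after knockdown, a rise of 1.85 ± 0.0704. CD44, the hyaluronan receptor, rose by 1.43 ± 0.0681 on its brightest probe and by 0.21 on another.

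**Figure D3:**
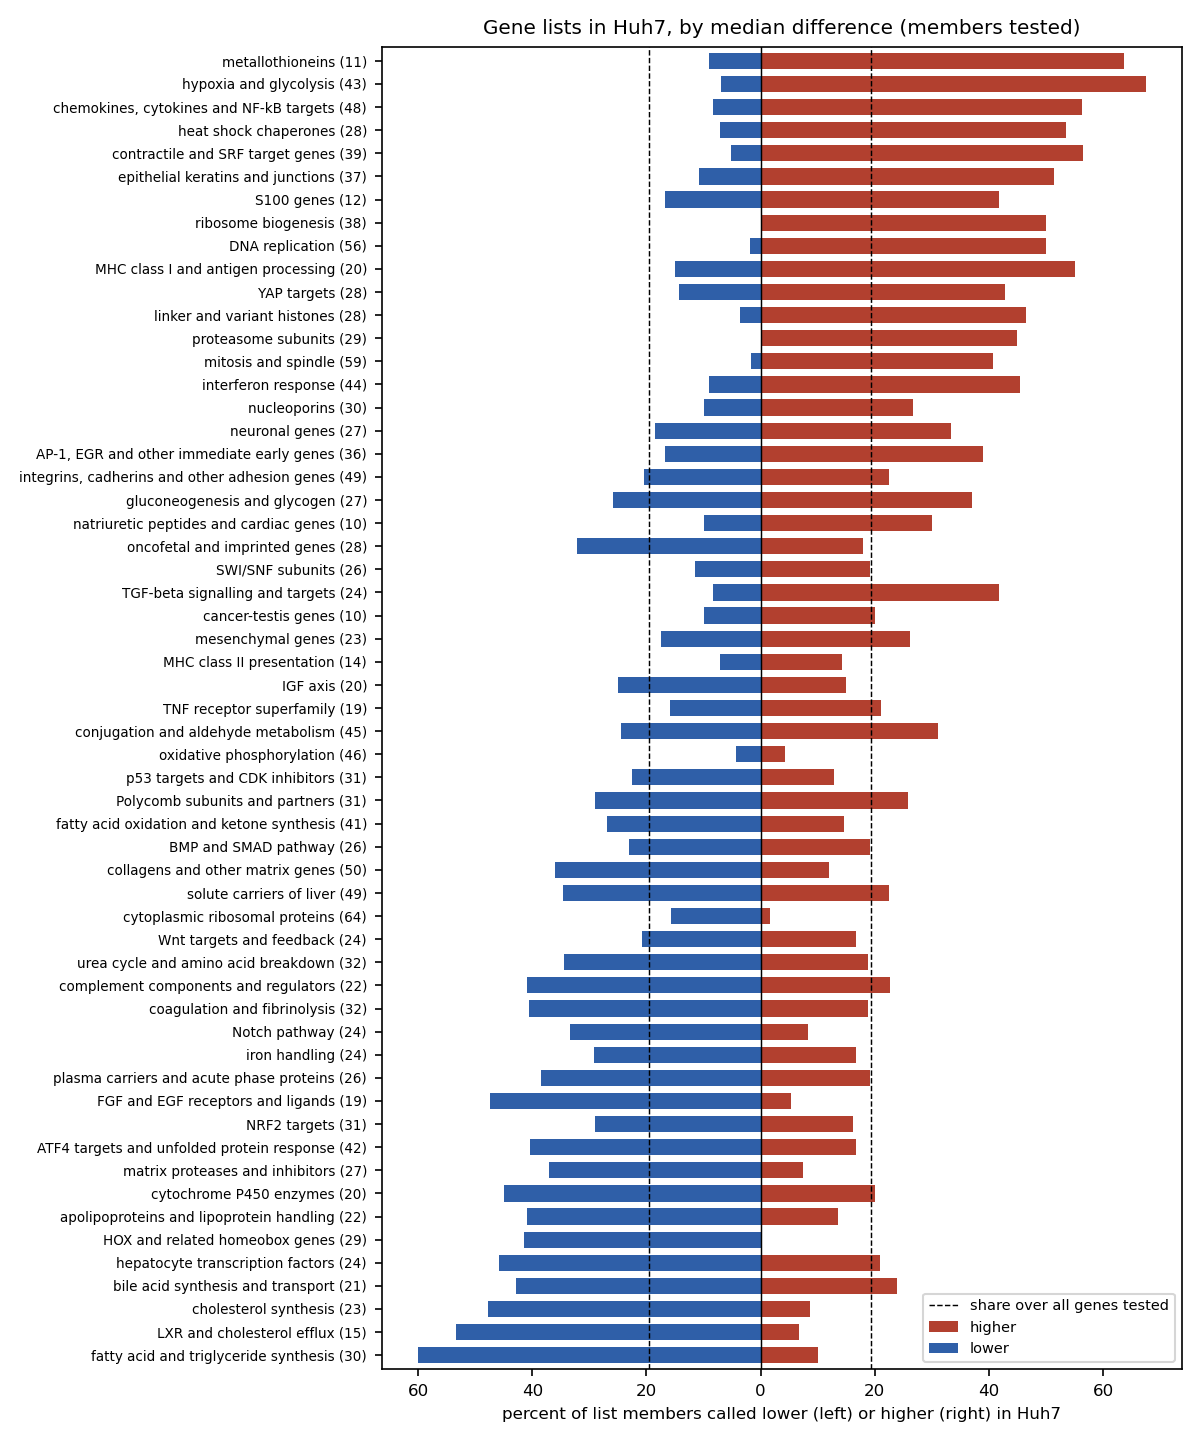
For each gene list with at least 10 members tested (number in brackets), bars give the percent of members called higher (right) and lower (left) in Huh7, and dashed lines give the shares over all genes tested, 19.4% and 19.5%. Lists are ordered by median difference, from metallothioneins at the top (63.6% higher) to fatty acid and triglyceride synthesis at the bottom (60% lower).

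Genes of fatty acid and triglyceride synthesis fell most broadly. Of 30 tested members 18 fell (60%, against 19.5% of all genes) and 3 rose, with 12 stable calls, all lower, and a median of -0.35. GPAM, which takes the first step of triglyceride synthesis, read 9.98 and 10.01 in the controls and 8.54 and 8.48 after knockdown, a difference of -1.49 ± 0.0697 (adjusted p = 5.95e-07), and its probes ran from -1.49 to -1.45. ACSS2, which makes acetyl-CoA from acetate, read 11.98 and 12.05 in the controls and 10.99 and 11.03 after knockdown, a difference of -1.001 ± 0.0701, with -0.22 on another probe. SREBF1, the transcription factor gene that governs the pathway, read 10.84 and 10.74 in the controls and 9.95 and 9.98 after knockdown.

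The sugar-sensing transcription factor gene MLXIPL likewise fell by 0.68 ± 0.0857 (-0.34 on a second probe), although genes of glycolysis rose. FASN, fatty acid synthase, read 14.95 and 15.04 in the controls and 14.34 and 14.40 after knockdown, and the desaturase gene FADS1 fell by 0.65 ± 0.0725. Genes of fatty acid oxidation moved less, with 6 of 41 higher and 11 lower (3 and 5 stable calls). PPARA, the regulator of fatty acid oxidation, fell by 0.70 ± 0.0779, PPARG fell by 0.42 ± 0.0959 and the kinase gene PDK4 fell by 0.56 ± 0.075, while the lipid droplet coat gene PLIN2 rose by 0.69 ± 0.0704.

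In cholesterol synthesis 11 of 23 tested genes fell (47.8%) and 2 rose, with 9 and 1 stable calls and a median of -0.22. INSIG1, the sterol-induced brake on the SREBP pathway and itself an SREBP target, read 12.71 and 12.60 in the controls and 11.33 and 11.31 after knockdown, a difference of -1.34 ± 0.243 (adjusted p = 0.00187), with -0.88 on its second probe. The enzyme genes FDPS (-0.83 ± 0.0899), HMGCS1 (-0.62 ± 0.121), IDI1 (-0.61 ± 0.0714) and LSS (-0.55 ± 0.0678, -0.23 on another probe) fell, from early and late steps of the pathway alike. MSMO1 fell by 0.81 ± 0.109 on its brightest probe, but its probes ran from -0.93 to 0.06. Of the LXR and cholesterol efflux genes 8 of 15 fell (53.3%) and 1 rose, with 6 stable calls, all lower.

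ABCG1, a cholesterol exporter that LXR induces, read 8.61 and 8.60 in the controls and 6.61 and 6.42 after knockdown on its brightest probe, a difference of -2.09 ± 0.0989. Its 3 probes ran from -2.09 to -0.04, so this fall was not seen on all of them. NR1H3, which encodes LXR alpha, fell by 0.52 ± 0.0737, MYLIP, the LXR-induced ligase that degrades the LDL receptor, fell by 0.78 ± 0.115, the LXR target gene SMPDL3A fell by 0.78 ± 0.0922 and NPC1, which releases cholesterol from lysosomes, fell by 0.88 ± 0.144.

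**Figure D4:**
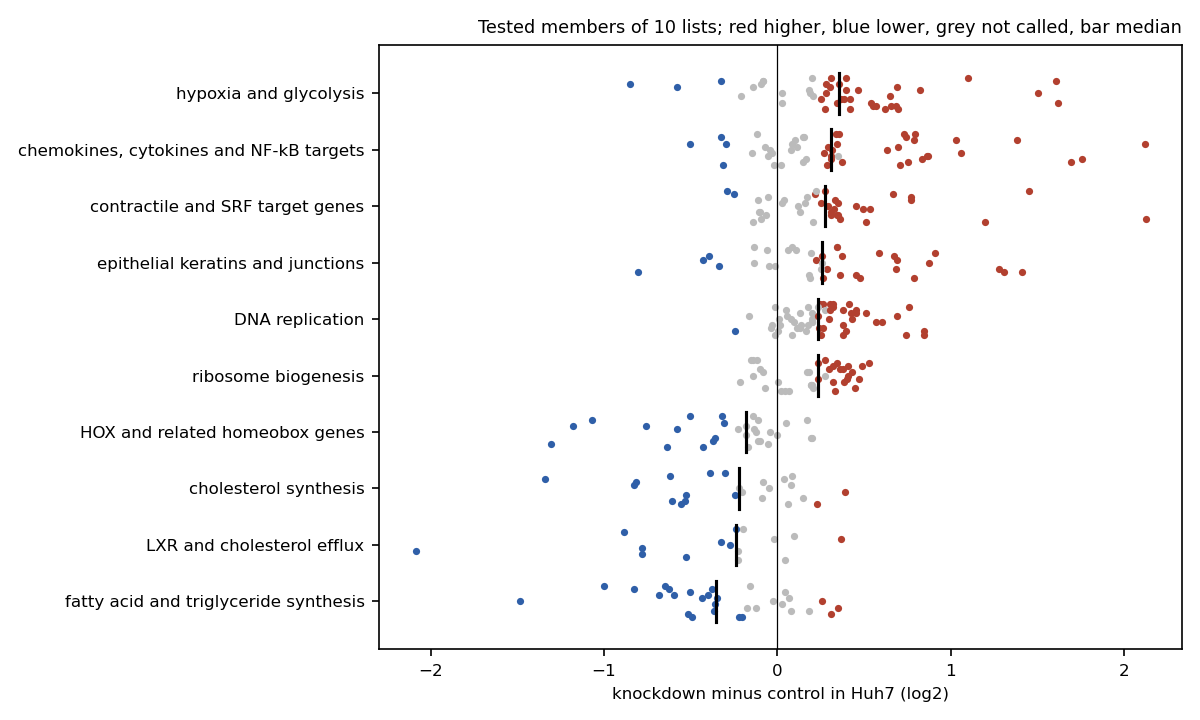
Each point is 1 tested gene of the list named at the left, placed by its log2 difference between knockdown and control in Huh7 (x axis), in red when called higher, blue when called lower and grey otherwise, with a black bar at the median of the list. Medians run from 0.35 for hypoxia and glycolysis to -0.35 for fatty acid and triglyceride synthesis, and every list also holds members near 0.

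The INSIG1 promoter is shown because INSIG1 had the largest fall of the cholesterol synthesis list. Its window is chr7:155297628-155297927 on the plus strand (RefSeq, GRCh38.p14), and capitals mark an E-box, CACGTG, at -55 to -50.
INSIG1: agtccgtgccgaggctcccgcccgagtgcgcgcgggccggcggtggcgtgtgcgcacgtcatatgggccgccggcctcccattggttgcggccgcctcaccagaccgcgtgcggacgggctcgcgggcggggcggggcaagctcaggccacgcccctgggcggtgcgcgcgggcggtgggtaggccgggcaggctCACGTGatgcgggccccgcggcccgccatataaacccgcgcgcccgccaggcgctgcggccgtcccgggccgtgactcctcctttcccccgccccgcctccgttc
CACGTG occurs in 7.26% of all promoters, and in 2 of the 14 promoters of cholesterol synthesis genes called lower (14.3%) against 5 of the 29 of all members (17.2%). The sterol response element form TCACNCCAC, found in 1.13% of all promoters, was not matched in this window, which says only that these letters are not there.

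Liver-secreted proteins split in both directions, with more falls than rises in every such list. Apolipoprotein and lipoprotein genes had 9 of 22 lower (40.9%) and 3 higher, with 6 and 2 stable calls. APOA1, the main protein of HDL, read 9.18 and 9.14 in the controls and 10.08 and 10.21 after knockdown, a rise of 0.99 ± 0.0782. APOA2, its partner in HDL, read 11.29 and 11.30 in the controls and 10.25 and 10.37 after knockdown, a difference of -0.98 ± 0.0807. These HDL apolipoprotein genes thus moved by similar amounts in opposite directions.

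APOC3, an inhibitor of lipoprotein lipase whose gene neighbours APOA1, rose by 0.86 ± 0.129. APOE fell by 0.65 ± 0.109, the clearance receptor gene LRP1 fell by 0.62 ± 0.103 and the phospholipid transfer gene PLTP fell by 1.13 ± 0.0803 (-0.30 on a second probe). Among plasma carriers and acute phase proteins 10 of 26 fell and 5 rose (7 and 5 stable calls). A2M, the broad protease inhibitor of plasma, read 9.93 and 9.95 in the controls and 8.10 and 8.12 after knockdown, a difference of -1.83 ± 0.0682. The retinol carrier gene RBP4 fell by 0.84 ± 0.0762. SAA4, a constitutive serum amyloid A, read 7.21 and 7.24 in the controls and 8.48 on both knockdown arrays, and SERPINA7, the thyroxine carrier, rose by 1.16 ± 0.0794. LEAP2, a liver peptide that opposes ghrelin, rose by 0.99 ± 0.0705, in contrast to the other liver peptide hormone gene HAMP.

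Complement genes had 9 of 22 lower and 5 higher, with 6 and 2 stable calls. MASP1, a protease of the lectin pathway, read 9.02 and 9.05 in the controls and 7.67 and 7.65 after knockdown, a difference of -1.37 ± 0.0671, and -0.89 on its other extreme probe. CFB and C2, the related protease genes of the alternative and classical pathways, were at -1.09 ± 0.0741 and -0.78 ± 0.0684, and the lectin gene COLEC11 fell by 0.82 ± 0.094. C8A and C8B, which encode chains of the membrane attack complex, rose by 0.74 ± 0.0765 and 0.87 ± 0.0924. Of the coagulation genes 13 of 32 fell (40.6%) and 6 rose, with 8 and 2 stable calls. KNG1, kininogen, read 8.87 and 8.81 in the controls and 7.34 and 7.35 after knockdown, a difference of -1.49 ± 0.0655. SERPINC1, antithrombin, fell by 1.32 ± 0.0836 to below the dim-probe limit, and the clotting factor genes F5 and F10 were both at -0.58. HABP2, a protease that activates clotting factor VII, read 7.17 and 7.26 in the controls and 8.975 and 9.005 after knockdown, a rise of 1.77 ± 0.0963.

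Among hepatocyte transcription factors 11 of 24 fell (45.8%) and 5 rose, with 6 and 4 stable calls and a median of -0.19. KLF15, a fasting-responsive factor, read 8.52 and 8.45 in the controls and 6.99 and 7.10 after knockdown, a difference of -1.44 ± 0.082. The nuclear receptor gene NR2F1 fell by 0.89 ± 0.0934 and FOXA3 fell by 0.55 ± 0.106. ATF5, abundant in hepatocytes, read 8.62 and 8.80 in the controls and 10.15 and 9.98 after knockdown, a rise of 1.35 ± 0.0927, and PROX1 rose by 0.55 ± 0.115. Of the 20 hepatocyte markers tested 9 fell and 2 rose, but only 3 and 2 of these calls were stable, so their median of -0.14 rested on small changes. AHSG, fetuin-A, fell by 0.71 ± 0.0727.

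Metabolic enzymes of liver moved in both directions, as did all genes tested, of which 19.4% rose and 19.5% fell. In bile acid synthesis and transport 9 of 21 genes fell (42.9%) and 5 rose (23.8%), with 6 and 4 stable calls. BAAT, which conjugates bile acids to glycine and taurine, read 6.32 on both controls and 8.20 and 8.08 after knockdown, a rise of 1.82 ± 0.0982. FGF19, the hormone that shuts off bile acid synthesis, fell by 0.67 ± 0.0872 and its co-receptor gene KLB fell by 0.56 ± 0.0673. AKR1C4 was at -1.35 ± 0.0767 on its brightest probe, but its probes ran from -1.35 to 0.53, and AKR1C2, a close relative in sequence, fell by 1.51 ± 0.0832, so values within this family are uncertain.

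Of the cytochrome P450 genes 9 of 20 fell (45%) and 4 rose (20%), with 4 and 3 stable calls. CYP1A1, the enzyme induced through the aryl hydrocarbon receptor, read 9.53 and 9.50 in the controls and 7.89 and 8.03 after knockdown, a difference of -1.56 ± 0.0795. The fatty acid hydroxylase genes CYP4F3 (-0.89 ± 0.094) and CYP4F12 (-0.88 ± 0.107) fell and CYP4B1 rose (0.83 ± 0.159). The list's median was -0.16, and it turned to 0.11 when only probes above the 99th percentile limit were kept. Among conjugating enzymes 14 of 45 rose (31.1%) and 11 fell (24.4%), with 8 and 5 stable calls. UGT2A3, a glucuronosyltransferase, read 7.09 and 7.04 in the controls and 8.71 and 8.54 after knockdown, a rise of 1.55 ± 0.0825, and UGT1A1, which conjugates bilirubin, rose by 0.74 ± 0.0723.

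In the urea cycle and amino acid list 11 of 32 genes fell (34.38%) and 6 rose (18.75%), with 9 and 3 stable calls. ARG1, the arginase of the urea cycle, read 9.21 and 8.96 in the controls and 7.81 and 7.69 after knockdown, and HAL, which breaks down histidine, fell by 1.32 ± 0.0905. MAT2A, the methionine adenosyltransferase of growing rather than resting hepatocytes, rose by 1.09 ± 0.0664. Of 49 solute carriers 17 fell (34.69%) and 11 rose (22.45%), with 11 and 7 stable calls. The citrate importer gene SLC13A5 fell by 1.22 ± 0.0742 and the glutamate transporter gene SLC1A3 fell by 1.20 ± 0.0829, while the choline transporter-like gene SLC44A3 rose by 1.39 ± 0.0744. Oncofetal genes had 9 of 28 lower (32.1%) and 5 higher (17.9%), with 6 and 2 stable calls. Their median was nonetheless 0.06, and it turned to -0.02 without the filter on dim probes. GPC3 (-0.73 ± 0.0812), H19 (-0.60 ± 0.095) and LIN28A (-0.66 ± 0.0778) fell, in contrast to EPCAM and KRT19, which belong to the same list. In the IGF axis 3 of 20 rose and 5 fell (1 stable call each way), near the shares of all genes, with IGF2 at -0.45 ± 0.0824.

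Rises of DNA replication genes were small. Of 56 tested members 28 rose (50%) and 1 fell, with 12 stable calls, all higher, and a median of 0.24. UHRF1, which couples replication to DNA methylation, read 11.91 and 11.78 in the controls and 12.69 on both knockdown arrays, a rise of 0.85 ± 0.102, and 0.41 on a second probe. TIPIN, a fork protection factor, rose by 0.84 ± 0.101, the ribonucleotide reductase gene RRM2 by 0.76 ± 0.0809, the helicase gene MCM4 by 0.74 ± 0.155 and the thymidylate synthase gene TYMS by 0.61 ± 0.084. Mitosis genes had 24 of 59 higher (40.7%) and 1 lower, of which only 6 were stable calls, with CENPF at 0.65 ± 0.0644 and the condensin gene NCAPG at 0.58 ± 0.0991. CDKN1A, the p53-induced brake on the cell cycle, read 12.54 and 12.49 in the controls and 11.69 and 11.75 after knockdown, a difference of -0.80 ± 0.0655. Of 31 p53 targets and CDK inhibitors 4 rose (12.9%) and 7 fell (22.6%), with 2 and 5 stable calls. TP53INP1 (-0.95 ± 0.0993) and CCNG1 (-0.67 ± 0.0763) fell, and TP53I3 rose (0.83 ± 0.111).

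Genes of ribosome biogenesis had 19 of 38 higher (50%) and 0 lower in limma at the adjusted threshold, with 1 lower at an unadjusted p under 0.05, and 10 stable calls. The ribosome assembly genes GRWD1 (0.53 ± 0.0962), RRS1 (0.49 ± 0.0904) and NOP58 (0.45 ± 0.0815) and the RNA polymerase I factor gene UBTF (0.47 ± 0.0988, 0.18 on a second probe) rose. Genes of the ribosomal proteins themselves did not follow: 1 of 64 rose and 10 fell (0 and 4 stable calls), with a median of -0.09. Of 29 proteasome genes 13 rose (44.8%) and 0 fell, nor did any fall at an unadjusted p under 0.05, with PSMC4 (0.46 ± 0.0703) and PSMD1 (0.46 ± 0.0756) in front and 6 stable calls.

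Heat shock chaperones had 15 of 28 higher (53.6%) and 2 lower, with 14 and 1 stable calls, so this group depended little on single arrays. HSPA1A, the inducible HSP70 gene, read 10.19 and 10.06 in the controls and 10.87 and 10.96 after knockdown, a rise of 0.79 ± 0.0914, although its probe can also read its near-identical neighbour. HSPH1 rose by 0.71 ± 0.0732 and the constitutive HSPA8 by 0.61 ± 0.0782. Metallothionein and zinc transport genes had 7 of 11 higher (63.6%) and 1 lower, with 5 and 1 stable calls and a median of 0.42. MT1M (0.85 ± 0.0928), MT1F (0.57 ± 0.0646) and MT1G (0.56 ± 0.115), close copies whose probes may share signal, rose together with the zinc exporter gene SLC30A1 (0.68 ± 0.0729, 0.43 on a second probe), and the zinc importer gene SLC39A10 fell by 0.53 ± 0.0964.

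Stress genes of the ATF4 pathway fell more often than they rose. Of 42 genes of the ATF4 and unfolded protein list 17 fell (40.5%) and 7 rose, with 10 and 2 stable calls. NUPR1, a stress-induced chromatin protein, read 9.40 and 9.31 in the controls and 7.91 and 7.87 after knockdown, a difference of -1.46 ± 0.0791. DDIT3, which encodes the pro-death factor CHOP, fell by 1.02 ± 0.143, the asparagine synthetase gene ASNS fell by 0.86 ± 0.109, and the amino acid transporter gene SLC7A5 rose by 0.84 ± 0.073. In the NRF2 list 5 of 31 rose (16.1%) and 9 fell (29.0%), with 4 and 2 stable calls. The glutathione peroxidase gene GPX2 led its rises at 1.23 ± 0.0873. Immediate early genes had 14 of 36 higher (38.9%) and 6 lower (16.7%), with 9 and 4 stable calls. PHLDA1 (1.34 ± 0.0683, 0.37 on another probe) and DUSP1 (0.91 ± 0.082) rose, and the ERK phosphatase genes DUSP5 (-1.29 ± 0.095) and DUSP6 (-0.78 ± 0.0953) fell. In S100 genes, which encode calcium sensors, 5 of 12 rose (41.7%) and 2 fell (16.7%), with 5 and 1 stable calls. S100A3 was at 1.78 ± 0.0933 and S100P at -1.89 ± 0.0872.

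Other SWI/SNF genes rose about as often as all genes. Of 26 other SWI/SNF and related subunit genes 5 rose (19.2%, against 19.4% of all genes) and 3 fell (11.5%, against 19.5%). Only the rise of BCL7C (0.51 ± 0.0864, 0.10 on a second probe) was a stable call. The Polycomb list had 8 of 31 higher (25.8%) and 9 lower (29.0%), with 4 and 5 stable calls. It had PCGF6 (-0.77 ± 0.106), CBX7 (-0.63 ± 0.0929) and JARID2 (-0.49 ± 0.0702) lower and SCML2 (0.52 ± 0.0886) higher. Among linker and variant histones 13 of 28 rose (46.4%) and 1 fell, of which only 4 were stable calls. MACROH2A2, the histone variant of silent chromatin, read 9.98 and 9.99 in the controls and 11.84 and 11.85 after knockdown, a rise of 1.86 ± 0.0881 or 3.63-fold. It was far ahead of the next member, H2BC5, at 0.86 ± 0.0738 and 0.19 on a second probe.

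Developmental regulators fell more often than they rose. Of 29 tested HOX and related homeobox genes 12 fell (41.4%) and 0 rose in limma at the adjusted threshold, with 1 higher at an unadjusted p under 0.05, and 7 of the falls were stable calls. IRX3, an Iroquois factor, read 11.21 on both controls and 9.91 and 9.90 after knockdown, a difference of -1.30 ± 0.0757. DLX1 read 9.34 and 9.24 in the controls and 8.09 and 8.13 after knockdown (-0.43 on its second probe), and SIX4 fell by 1.07 ± 0.0816. HOXC13 (-0.76 ± 0.0689), CDX2 (-0.64 ± 0.0687) and HOXC8 (-0.58 ± 0.0859) fell as well.

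Notch pathway genes had 8 of 24 lower (33.3%) and 2 higher, with 5 and 1 stable calls. LFNG, the glycosyltransferase that tunes Notch receptors, read 9.07 and 8.97 in the controls and 7.70 and 7.68 after knockdown, a difference of -1.33 ± 0.0673. The receptor gene NOTCH3 fell by 1.05 ± 0.0831, and the target genes HES6 and HES1 were at -1.21 ± 0.1 and -0.65 ± 0.105, while the target gene HEYL rose by 0.58 ± 0.0857. Of the FGF and EGF receptors and ligands 9 of 19 fell (47.4%) and 1 rose, with 7 and 1 stable calls: the receptor genes EGFR (-0.53 ± 0.114, -0.22 on a second probe) and FGFR3 (-0.60 ± 0.0761, -0.06 on a second probe) and MST1, which encodes macrophage-stimulating protein (-1.01 ± 0.0785), fell, and the EGF-like ligand gene EREG rose (0.77 ± 0.115). Wnt genes were mixed, with 4 of 24 higher and 5 lower (2 and 3 stable calls). DKK1, a secreted Wnt inhibitor, rose by 0.91 ± 0.0784, and AXIN2, a feedback target, fell by 0.61 ± 0.0711. DACT3, an inhibitor of Wnt signalling, read 8.56 and 8.49 in the controls and 6.95 and 6.84 after knockdown.

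Matrix genes fell more often than they rose. Of 50 collagen and other matrix genes 18 fell (36%) and 6 rose, with 11 and 4 stable calls. THBS4, a thrombospondin of tendon and muscle matrix, read 9.90 and 9.95 in the controls and 7.63 and 7.45 after knockdown, a difference of -2.39 ± 0.0912 or 5.23-fold. THBS1 rose by 1.09 ± 0.0968, so thrombospondin genes differed in direction. SPOCK2, a proteoglycan, read 9.19 and 9.02 in the controls and 7.29 and 7.38 after knockdown, and VCAN, versican, fell by 1.21 ± 0.07. COL4A1, of basement membrane, rose by 1.21 ± 0.0802. In the matrix protease list 10 of 27 fell (37%) and 2 rose, with 9 and 1 stable calls, among them MMP11 (-1.42 ± 0.0654), ADAMTS9 (-1.16 ± 0.092), the cathepsin gene CTSL (-1.14 ± 0.0793, -0.63 on another probe) and the inhibitor gene TIMP3 (-0.87 ± 0.0702). Of 49 integrins, cadherins and other adhesion genes 11 rose and 10 fell (6 and 4 stable calls), near the shares of all genes.

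Further single genes among the largest changes belonged to no list with a common direction. LRRN3, a leucine-rich repeat membrane protein, read 7.64 and 7.67 in the controls and 9.66 and 9.58 after knockdown. LYPD6B read 7.48 and 7.40 in the controls and 9.39 and 9.44 after knockdown, and the hypoxia-related membrane protein gene TMEM45A read 8.89 and 8.90 against 10.53 and 10.56. Neuronal genes had 9 of 27 higher (33.3%) and 5 lower (18.5%), with 6 and 1 stable calls. The neurotensin gene NTS, known from liver tumours, fell by 1.55 ± 0.0896. RGS10, which switches off G proteins, read 12.15 and 12.02 in the controls and 10.53 and 10.57 after knockdown. GDF11, a relative of myostatin, fell by 1.55 ± 0.0821 (-0.91 on its second probe), and PLA2G7, which inactivates platelet-activating factor, fell by 1.86 ± 0.0783. In the remaining lists, 2 of 10 cancer-testis genes rose and 1 fell (2 and 1 stable calls), and 8 of 30 nucleoporins rose and 3 fell (3 and 2), with NUP98 at 0.82 ± 0.0784 (0.16 on another probe) and NUP210 at -0.58 ± 0.0778.

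The response was compared with that of SK-Hep1, whose arrays share no controls with Huh7. The difference between the lines' responses passed the adjusted threshold in 3890 genes (31.3%), a count that was 2559 without Huh7 control array 1 and 2530 without Huh7 control array 2. All 40 of the largest changes in Huh7 differed from those in SK-Hep1 in the fit of all 8 arrays, which their choice by size in Huh7 favours. For CCL2 and OLR1 this call was lost without any 1 of 6 arrays, the 4 of Huh7 and the 2 SK-Hep1 controls, and with an intensity trend and robust prior in the variance model (adjusted p = 0.176 for CCL2 and 0.141 for OLR1). Of the 20 rises 9 were also higher in SK-Hep1, by less, and 2 were lower there; of the 20 falls 1, SMARCB1, was also lower and 2 were higher. HAMP, at -3.16 in Huh7, was at 0.07 in SK-Hep1. The deposited values do not show which genes SK-Hep1 expresses, and a gene silent there would read near 0 as well. This was not tested. Sizes depend on how each line was scaled before deposit, and the SMARCB1 difference itself was -1.65 in Huh7 and -1.16 in SK-Hep1. The gap of -0.48 (adjusted p = 0.035) kept its call without SK-Hep1 knockdown array 11 and lost it without each of the other 7 arrays, with adjusted p-values from 0.0588 to 0.119 and a gap of -0.30 without SK-Hep1 knockdown array 12.

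Gene groups were compared in the same way. Over all genes, the Huh7 value lay above the SK-Hep1 value in 1999 (16.1%) and below it in 1891 (15.2%). Of 56 DNA replication genes 33 had a difference between the lines, all with the Huh7 value above, and 13 fell in SK-Hep1 while 28 rose in Huh7. Mitosis genes had 36 of 59 with the Huh7 value above the SK-Hep1 value, with 30 lower in SK-Hep1 and 24 higher in Huh7. The hypoxia list had 21 of 43 members above and 4 below the SK-Hep1 value, and NF-kB targets 21 and 7 of 48. In fatty acid and triglyceride synthesis 9 of 30 members were below the SK-Hep1 value and 2 above, and in cholesterol synthesis 3 of 23 were below and 4 above, near the share of all genes, with medians of -0.22 in Huh7 and -0.20 in SK-Hep1.

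**Figure D5:**
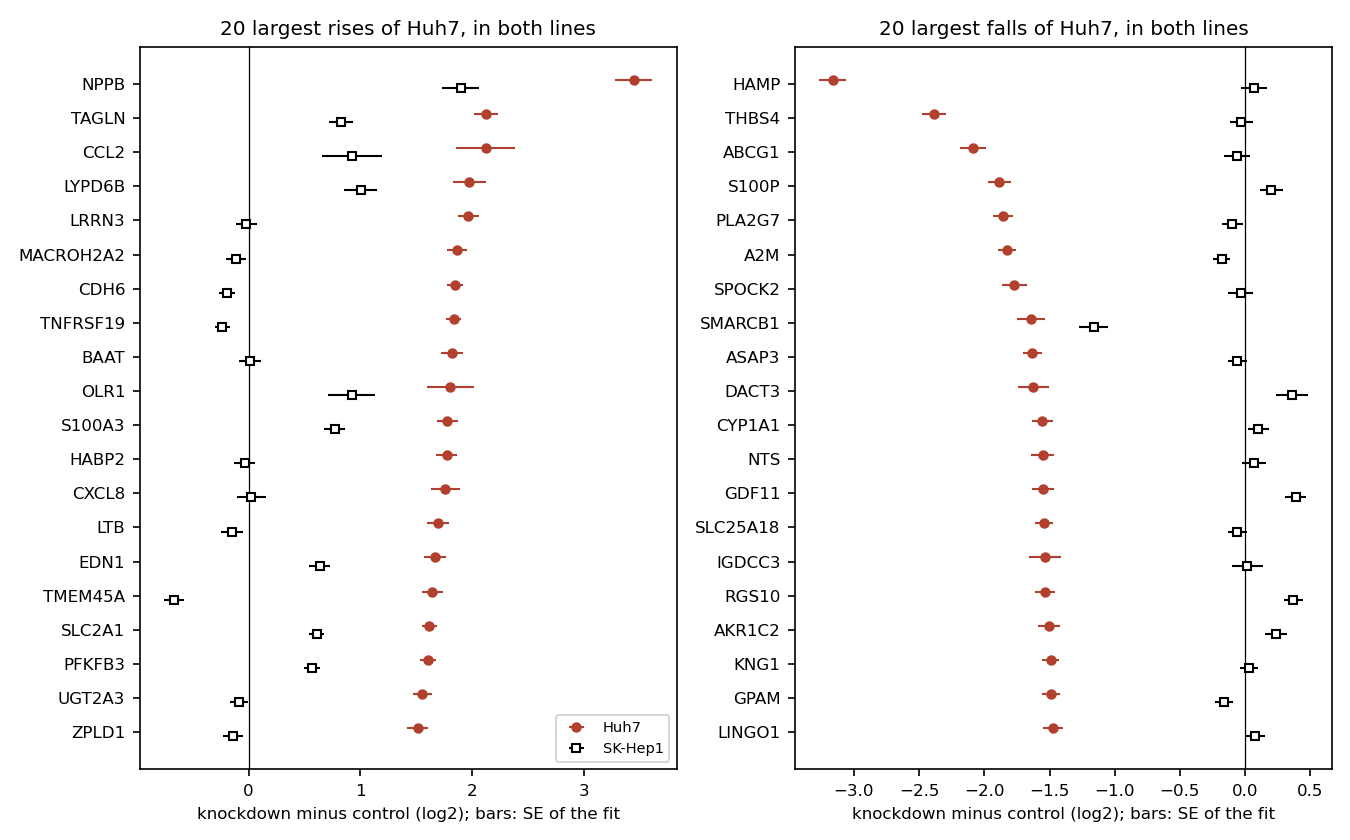
Log2 differences between knockdown and control (x axis, bars for the standard error of the fit, 2 arrays in each group) in Huh7 (filled circles) and SK-Hep1 (open squares) for the 20 genes with the largest rises and the 20 with the largest falls in Huh7. For most falls the SK-Hep1 point lies near 0, with SMARCB1 (-1.16) also lower and 2 genes higher. Of the rises 9, with NPPB (1.90) foremost, were also higher in SK-Hep1, and 2 were lower.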

How the data were processed

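The values used were the log2 intensities of Illumina BeadChip probes deposited by the authors, processed with GenomeStudio 2011.1 per the submitters' processing notes. For background treatment, normalization and adjustment between cell lines, nothing was given in the sources used here. A deposited table of 16 signal columns whose names match no sample label was not used. Probes were named from the platform annotation: 30110 had 1 symbol, 8 several and 17201 none, and 30071 of the named probes matched RefSeq by gene ID.

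Probes were kept where their mean over the 8 arrays exceeded 7.003, the 95th percentile of 637 probes for olfactory receptors, taste receptors, keratin-associated proteins and similar silent families (45.31% of probes). The brightest probe stood for a gene. limma 3.58.1 in R 4.3.3 was fitted (lmFit and eBayes) to the means of 4 groups over all 8 arrays, and the contrasts were Huh7 knockdown minus control and its difference from the same contrast in SK-Hep1, adjusted by Benjamini-Hochberg over 12411 genes at 0.05. The number of arrays limits the precision.

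Named genes were SMARCB1, the 20 largest rises and 20 largest falls whose knockdown arrays both lay beyond the 2 controls, and up to 6 called members of each list with the largest differences. Some further interferon-induced and BMP-induced genes are given beside these. Members and lists were chosen with earlier results of these data known, so list counts are descriptions. Alternatives were other filters, normalizations, probe rules and variance models, and leaving out each array.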

Additional observations from a re-analysis of the deposited data

Results flagged for a closer look

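The response of each of the 40 most changed genes differed between Huh7 and SK-Hep1 by a test of the difference itself (limma, Benjamini-Hochberg adjusted p from 1.62e-06 to 0.0457), which is why they are listed here. These genes were chosen for large changes in Huh7, so a larger change there than in SK-Hep1 is partly set by the choice. Whether SK-Hep1 expresses each of them cannot be read from the deposited values. Values are the Huh7 difference minus the SK-Hep1 difference on the log2 scale, and each line has its own 2 control arrays.

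Among the rises, NPPB (1.55), TAGLN (1.3), CCL2 (1.19), LYPD6B (0.97), OLR1 (0.88), S100A3 (1), EDN1 (1.03), SLC2A1 (1.01) and PFKFB3 (1.04) were also higher in SK-Hep1, by less. TNFRSF19 (2.07) and TMEM45A (2.31) were lower in SK-Hep1. LRRN3 (1.98), MACROH2A2 (1.98), CDH6 (2.04), BAAT (1.81), HABP2 (1.81), CXCL8 (1.73), LTB (1.84), UGT2A3 (1.64) and ZPLD1 (1.65) passed the test in Huh7 and not in SK-Hep1.

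Among the falls, GDF11 (-1.94) and RGS10 (-1.9) were higher in SK-Hep1. HAMP (-3.23), THBS4 (-2.36), ABCG1 (-2.02), S100P (-2.08), PLA2G7 (-1.76), A2M (-1.65), SPOCK2 (-1.74), ASAP3 (-1.57), DACT3 (-1.98), CYP1A1 (-1.66), NTS (-1.62), SLC25A18 (-1.48), IGDCC3 (-1.55), AKR1C2 (-1.74), KNG1 (-1.52), GPAM (-1.32) and LINGO1 (-1.55) passed the test in Huh7 and not in SK-Hep1. SMARCB1 itself (-0.48, adjusted p = 0.035) fell in both lines.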

How the results depend on the processing

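The number of genes called in Huh7 ran from 2877 to 5606 when arrays were left out in turn, with 2877 and 2960 without control arrays 1 and 2 and 3133 and 3033 without knockdown arrays 3 and 4. The number differing between lines ran from 2530 to 4491, with 2559 and 2530 without Huh7 control arrays 1 and 2. A lone array left in a group was assumed to vary like the other groups. Other filters, normalizations, probe rules and variance models gave 4456 to 6359 calls, and 2-fold changes numbered 152 to 181 under all alternatives. Of 338 named genes, 0 changed sign and 303 lost their call under no alternative they were tested in; 27 fell below the stricter filter on dim probes and were not tested under it. The difference between lines lost its call for SMARCB1, CCL2 and OLR1 without most single arrays and, for CCL2 (adjusted p = 0.176) and OLR1 (0.141), with an intensity trend and robust prior, and 10 list medians changed sign under at least 1 alternative, among them TGF-beta, Polycomb and cytochrome P450 genes. The cause was not tested. No paired analysis was possible because the Huh7 groups share no replicate numbers. Values below the dim-probe limit lie within the range of most probes for silent gene families on the deposited scale. They do not show whether a gene is silent in Huh7.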
